A study of Caenorhabditis elegans with 2 samples.

Results

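The cytosolic ribosomal protein genes of Caenorhabditis elegans were examined for binding of the C2H2 zinc finger protein SDZ-12. Members were all protein-coding genes of Ensembl release 115 (WBcel235) whose name begins with rpl- or rps-, together with rla-0, rla-1 and rla-2. The rule gave 81 of 19973 protein-coding genes, 50 for the large subunit and 31 for the small subunit. It used names alone and no measured value. Of the members 25 lie on chromosome I, 18 each on III and IV, 10 on II, 8 on V and 2 on X.

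The data came from chromatin immunoprecipitation followed by sequencing of strain OP670. This strain is mutant for unc-119(tm4063) and carries the array wgIs670, which supplies unc-119(+) and SDZ-12 fused at its C terminus to TY1, EGFP and 3xFLAG. Chromatin of whole mixed-sex animals at the L4 larval stage (71 hours, after synchronisation by starvation at L1) was sheared by sonication, and tagged SDZ-12 was pulled down with an antibody against GFP. There were 2 biological replicates of this 1 group and no second condition. The labels do not state that the endogenous sdz-12 gene was removed. All tissues were mixed in the chromatin, so no cell type can be assigned to a peak. No library from worms without the tag was analysed here, so signal that any immunoprecipitation would give at these promoters cannot be told apart from binding of SDZ-12.

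A cytosolic ribosome has a small subunit, which reads the messenger RNA in its decoding centre, and a large subunit, which joins amino acids in its peptidyl transferase centre. Its proteins are needed in near-equal amounts, and their genes are among the most strongly expressed in growing animals. In C. elegans many of their messages receive a spliced leader by trans-splicing, which removes the original start of the transcript, and several of their introns hold small nucleolar RNAs (snoRNAs), which guide modification of ribosomal RNA.

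Each deposited call is an interval with a summit, a signal value in the authors' units and a rank by that signal. The optimal list holds 665 calls, and the pooled list and each replicate list hold 30000. All 665 optimal calls are the pooled calls of highest signal, from 136.3 to 537.7. A call was assigned to a gene if its summit lay from 1000 bp upstream to 200 bp downstream of the annotated 5' end. Shares above 0 carry 95% Wilson intervals where an interval is given. For a count of 0 the share it allows is 3 counts of the total, and both cover counting error over genes only. With 1 group of 2 replicates no test between conditions is possible, and the shares of all protein-coding genes are given as the background.

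The DNA under the summits is shown first, for 7 members whose summit windows hold one or both of the words shared by the most member windows. Each line gives the 101 bp centred on the optimal summit, 5' to 3' on the strand of the gene, from the RefSeq copy of the ce11 assembly. Capitals mark the 7-base words TACCGTA and AAGTGTA in either orientation, which read TACGGTA and TACACTT on the other strand. These were the 2 words found in the most member windows and were chosen after the windows were seen. The windows of rps-19, rps-26, rpl-7A, rpl-12, rps-11, rpl-27 and rps-12 hold neither word and are not shown. That of rps-20 holds TACCGTA and is also not shown.
rpl-3, chrIII:3867537-3867637, plus strand: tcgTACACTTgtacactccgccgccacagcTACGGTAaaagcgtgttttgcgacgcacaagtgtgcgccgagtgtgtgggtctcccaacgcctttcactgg
rpl-15, chrIV:654895-654995, minus strand: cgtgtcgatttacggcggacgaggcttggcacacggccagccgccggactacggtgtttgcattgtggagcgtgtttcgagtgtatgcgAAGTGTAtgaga
rpl-35, chrIII:7854624-7854724, plus strand: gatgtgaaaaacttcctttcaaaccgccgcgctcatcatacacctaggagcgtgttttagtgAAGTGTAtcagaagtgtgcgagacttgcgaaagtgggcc
rpl-20, chrIV:4750016-4750116, minus strand: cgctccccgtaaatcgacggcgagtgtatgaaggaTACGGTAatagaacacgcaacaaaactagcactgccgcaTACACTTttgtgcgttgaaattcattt
rps-23, chrIV:12391282-12391382, minus strand: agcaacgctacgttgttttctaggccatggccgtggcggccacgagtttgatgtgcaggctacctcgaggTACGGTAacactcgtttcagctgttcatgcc
rps-1, chrIII:4475615-4475715, plus strand: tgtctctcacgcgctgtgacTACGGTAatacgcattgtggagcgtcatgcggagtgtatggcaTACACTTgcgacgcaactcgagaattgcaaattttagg
rpl-43, chrII:14154505-14154605, plus strand: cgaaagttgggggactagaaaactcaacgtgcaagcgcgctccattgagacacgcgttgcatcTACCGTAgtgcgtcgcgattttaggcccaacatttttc

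Ribosomal protein genes carried optimal peaks at a much larger share than coding genes in general. An optimal summit lay in the promoter window of 15 of 81 members (18.5%, interval 11.6 to 28.3), while 322 of all 19973 protein-coding genes had one (1.61%). The 15 members had 15 distinct peaks, with no peak shared by 2 members and no member with a second optimal summit. The large subunit contributed 8 of 50 genes (16%, interval 8.34 to 28.5) and the small subunit 7 of 31 (22.6%, interval 11.4 to 39.8), and these intervals overlap widely. By chromosome the counts were 6 of 18 on IV, 4 of 18 on III, 4 of 25 on I, 1 of 10 on II, 0 of 8 on V and 0 of 2 on X. A count of 0 of 8 allows a share of up to 37.5%, so the absence on V says little.

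The ratio of members to all coding genes was highest at the top of the list. Among the 100 strongest pooled calls were those of 8 members (9.88%), against 79 of all protein-coding genes (0.396%). Ranks 101 to 665 held another 7 members (8.64%) against 1.22% of all genes, and ranks 666 to 2000 held 7 more (8.64%) against 2.04%. From rank 2001 to 10000 there were 11 members (13.6%) against 8.87%, and from rank 10001 on 19 members (23.5%) against 19.1%. In all, 52 of 81 members (64.2%, interval 53.3 to 73.8) had any pooled call in the window, beside 31.6% of all genes. The count was 32 of 50 (64.0%) for the large and 20 of 31 (64.5%) for the small subunit. The median rank of the strongest pooled call was 3579.5 over the 52 members and 13208 over the 6309 genes with a call. The members' median depended on the window, being 1692 with no bases downstream of the 5' end and 5257 with 500 bp downstream.

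**Figure D1:**
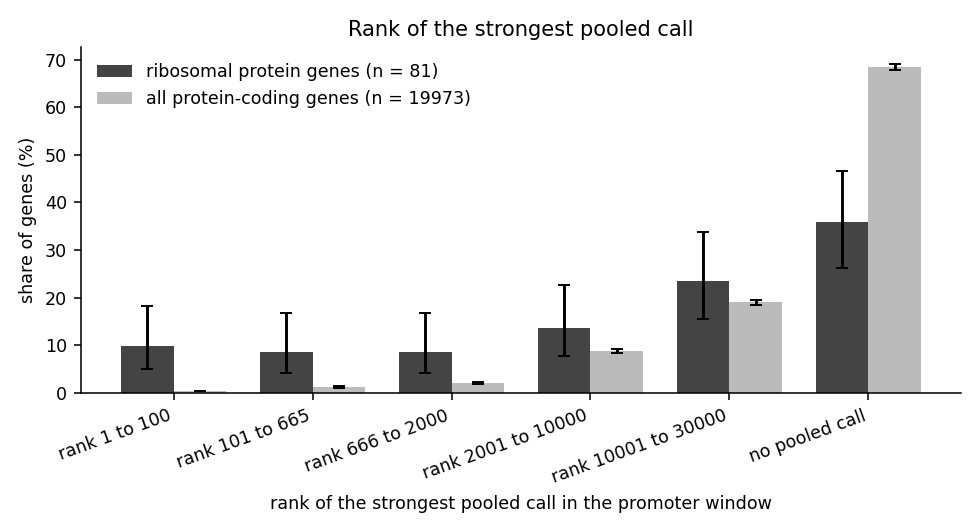
Share of the 81 ribosomal protein genes (dark bars) and of all 19973 protein-coding genes (light bars) whose strongest pooled call fell in each class of rank, as percent, with 95% Wilson intervals as error bars. The member bars stand above the background in every class of rank. From rank 2001 on, the intervals of the members include the share of all genes. No pooled call lay in the promoter window of 35.8% of members against 68.4% of all genes.

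Each replicate alone gave a similar count. Taking the 665 strongest calls of each replicate, 14 members (17.3%) had one in replicate 1, where the share of all coding genes was 1.56%. In replicate 2 the count was 13 members (16%), where the share of all coding genes was 1.49%. Of the members 11 (13.6%, interval 7.76 to 22.7) were in both sets, 6 of the large and 5 of the small subunit, beside 0.961% of all coding genes. Counting every call, 52 members had one in replicate 1 and 48 in replicate 2, with 32.1% and 30.9% of all coding genes. A call was present in both replicates at 37 members (45.7%) and at 18.3% of all coding genes.

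The strongest peak of the group lay upstream of rpl-3 (chrIII:3867854-3869587, plus strand), whose protein reaches toward the peptidyl transferase centre. Its signal was 507.7 in the pooled list at rank 3, 253.7 in replicate 1 at rank 4 and 256.4 in replicate 2 at rank 3. The summit lay 267 bp upstream of the 5' end in the pooled list (offset -267), and it moved by 0 and 1 bp in the replicates. No other member ranked as high in any of these lists.

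Another 3 large subunit genes followed before any small subunit gene. At rpl-15, a gene for a protein of the large subunit core, the signal was 429.2 (rank 7), with 213.7 in replicate 1 and 216.7 in replicate 2. At rpl-35, whose protein lies near the exit of the peptide tunnel, it was 360.9 (rank 14), with 158.9 and 201.7. At rpl-20 it was 326.3 (rank 22), with 157.5 and 162.4. All 4 of these genes ranked among the 33 strongest calls of both replicates, and the replicate summits lay within 32 bp of the pooled ones.

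Among the small subunit genes the leading peak was that of rps-19, with a pooled signal of 282.5 (rank 43) and replicate signals of 141.6 and 141.9. The human homologue of rps-19 is mutated in Diamond-Blackfan anaemia, an inherited failure of red cell production. At rps-23, whose protein sits in the decoding centre, the signal was 258.5 (rank 60), with 152.7 at rank 39 in replicate 1 and 87.2 at rank 277 in replicate 2. At rps-26, whose protein lines the messenger RNA exit channel, the signal was 244.9 (rank 74), with 97.2 and 137.7. At rps-1 it was 235.8 (rank 87), with 95 and 137.5. At rps-20, a gene for a protein of the head of the small subunit, it was 191.6 (rank 186), with 86.8 and 104.6. Of these 5 genes rps-23 ranked higher in replicate 1 and the other 4 in replicate 2.

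The remaining 6 members lay lower in the list. The pooled signal was 168.0 at rpl-43, 167.0 at rpl-7A, 161.1 at rpl-12, 156.9 at rps-11, 156.4 at rpl-27 and 140.1 at rps-12. Of these rpl-12 encodes a protein at the base of the stalk that binds translation factors. Several of these peaks ranked differently in the 2 replicates. The peak of rps-11 ranked 158 in replicate 1 (signal 109.7) and 4328 in replicate 2 (signal 47.7), and the replicate 2 summit lay 152 bp from the pooled one. The peak of rps-12 ranked 2031 and 823, outside the 665 strongest of either replicate. The peak of rpl-43 ranked 248 and 873, and that of rpl-12 ranked 851 and 246. These 4 genes are the ones missing from the set shared by both replicates.

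**Figure D2:**
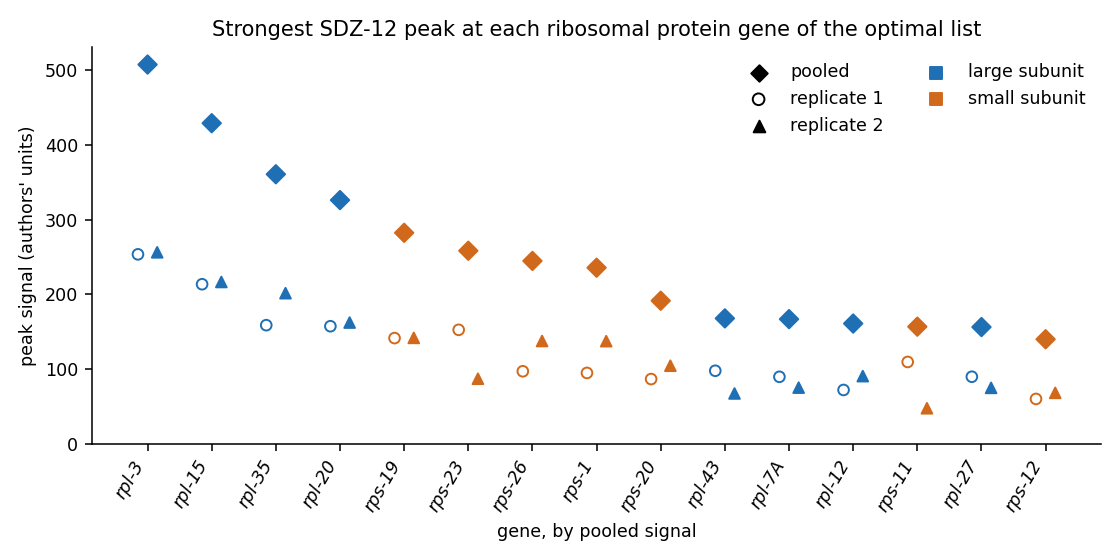
Signal of the strongest optimal peak at each of the 15 members (authors' units, linear axis from 0), in the pooled list (diamonds), replicate 1 (open circles) and replicate 2 (triangles), with large subunit genes in blue and small subunit genes in orange. Signals fall from 507.7 at rpl-3 to 140.1 at rps-12, and the replicates lie farthest apart at rps-23 and rps-11.

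All 15 members had a call in each replicate. The summits of the 2 replicates lay within 200 bp of each other for all 15 and within 50 bp for 13, with a median shift of 18 bp. Across these 15 peaks, which share the same 2 libraries, the replicate signals correlated with Pearson's r of 0.84 and Spearman's rho of 0.64. For the 303 other coding genes with an optimal summit and a call in each replicate the values were 0.65 and 0.46. The replicate summits of these other genes lay within 200 bp of each other for 292 of 303, with the same median shift of 18 bp. Close replicate summits were thus not particular to the members. The median signal in the optimal list was 235.8 for the 15 members (247.2 large, 235.8 small) and 173.8 for 307 other genes. The 307, from which the 303 were drawn, include the 11 divergent neighbours of members described below. Their optimal summits are those of the members, so the compared sets share peaks. Of the 15 peaks 9 (60%) were at the highest −log10 q-value of the list, 2.21, a value that 243 of the 665 optimal calls share (36.5%).

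The list ended within the group rather than at a gap. Just inside it was rps-12, with a signal of 140.1. Just outside were rpl-1 (133.7, rank 710), a gene for a protein of the mobile stalk near the tRNA exit site, rps-28 (133.6, rank 714), rla-1 (133.5, rank 722), which encodes an acidic stalk protein, and rps-24 (130.0, rank 807). Then came rpl-39 (118.5, rank 1234), rpl-11.2 (110.9, rank 1645), rpl-41.2 (110.3, rank 1692), rpl-4 (103.6, rank 2286), rpl-22 (103.3, rank 2320) and rpl-29 (98.4, rank 2950). Of the members outside the optimal list, rpl-1 was among the 665 strongest calls of replicate 1 (rank 397) and rpl-41.2 among those of replicate 2 (rank 422), and no other was in either. At the other end, 29 members (35.8%) had no pooled call in the promoter window, beside 68.4% of all coding genes. For 18 (22.2%) the window held no call of any list, beside 54.1%. Those 18 included rla-0 and rla-2, which encode the other stalk proteins, and also rpl-5, rps-6, rps-7 and rps-13. An empty window did not mean a gene without calls. Farther inside rps-6 lay a pooled call at rank 1008 and a replicate 2 call at rank 289. A pooled call lay inside the gene itself at 53 of 81 members (65.4%), a share that was not computed for all coding genes.

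Numbered copies and similarly named genes differed in their calls. The copy rpl-11.2 had a pooled call at rank 1645, while that of rpl-11.1 ranked 25063. For rpl-24.2 the rank was 12171, and the promoter window of rpl-24.1 held no call of any list. For rpl-25.2 the rank was 13208, and the window of rpl-25.1 held only a replicate 2 call at rank 22206. A strongest pooled call past rank 10000 was found at 23.5% of members and 19.1% of all coding genes. The presence or absence of calls this weak therefore says little about a difference between copies. The tandem copies rpl-41.1 and rpl-41.2 are 700 bp apart, and the single pooled call near them lay 135 bp upstream of rpl-41.2. The genes rpl-7 and rpl-7A, which encode proteins of different families, ranked 20051 and 318. How reads that match more than 1 copy were placed is not given in the sources used here.

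Optimal summits of members lay upstream of the gene, at some distance from its 5' end. The median offset was -280 bp over the 15 members, with quartiles of -449 and -244.5 and a range of -739 to -2. Of the 15 summits 9 (60%) lay from 500 to 200 bp upstream, beside 101 of 307 other coding genes with an optimal summit (32.9%), whose median was -263. These other genes include the 11 divergent neighbours of members, whose summits are the members' own peaks measured from another 5' end. None of the 15 lay downstream of the 5' end, which allows a share of up to 20% and cannot be told apart from the 12.7% of the other genes. A summit within 100 bp of the 5' end was found for rpl-7A (-51) and rpl-12 (-2), 13.3% of the 15, beside 17.6% of the other genes. The farthest were rpl-43 (-739), rpl-27 (-692) and rps-11 (-517). The median was -328.5 for the large and -279 for the small subunit, and for the same 15 genes it was -280 in replicate 1 and -281 in replicate 2. Among weaker calls, 12 of the 37 members with a pooled call outside the optimal list (32.4%) had it downstream of the 5' end, among them rla-1 (offset 122) and rpl-4 (offset 134), beside 22.8% of 5950 other coding genes with such a call.

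**Figure D3:**
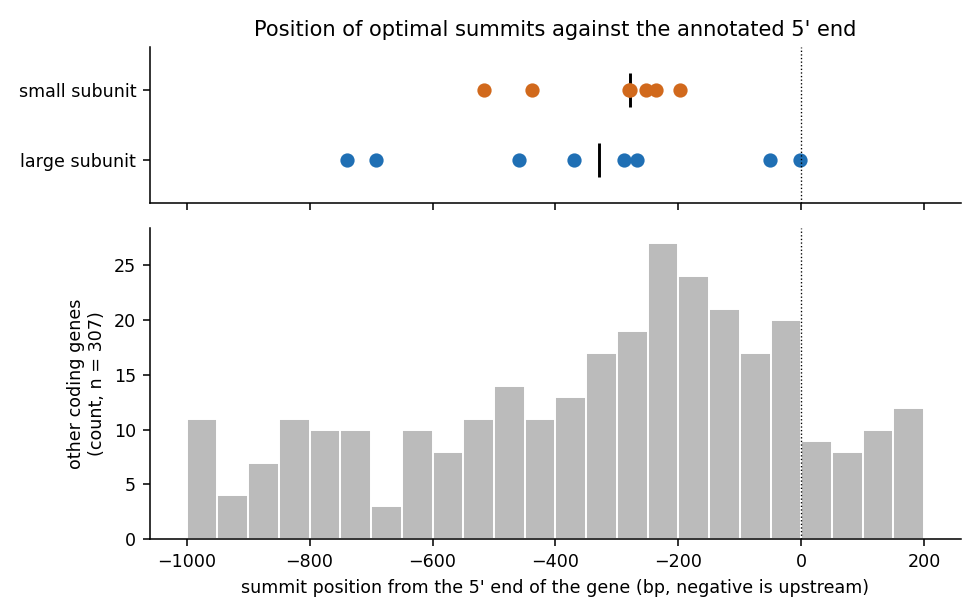
Position of each optimal summit from the annotated 5' end of its gene in bp, negative upstream, with the 8 large and 7 small subunit genes as points (black ticks are medians, -328.5 and -279) over a histogram of 307 other protein-coding genes in bins of 50 bp. The 15 member summits lie at -739 to -2 bp, and those of the other genes at -994 to 191 bp. The other genes include the 11 divergent neighbours that share a summit with a member.

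These distances run from annotated 5' ends, which in C. elegans can be the site where the spliced leader is joined. The annotated 5' end lay a median of 8 bp before the first coding base in members and 15 bp in all protein-coding genes. It lay at most 25 bp before it in 65 of 81 members (80.2%) and in 58.9% of all genes. The bases TTTCAG, which form the usual acceptor of a splice in C. elegans, stood directly before the annotated 5' end of 40 of 81 members (49.4%) and of 12.3% of all coding genes. The 30 bases before the 5' end are shown for 3 of them with the acceptor in capitals, 5' to 3' on the strand of the gene and from the same assembly.
rpl-3, chrIII:3867824-3867853, plus strand: taattttttcgtaaaattaatattTTTCAG
rpl-20, chrIV:4749779-4749808, minus strand: cattccttgcatcatatttttgttTTTCAG
rps-1, chrIII:4475888-4475917, plus strand: tactgttaaattatgtattcctatTTTCAG
The place where transcription of these genes begins was not measured here, so the distance from summit to that place is unknown.

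Most members share their upstream region with a gene that points the other way. A protein-coding gene on the opposite strand, with its 5' end within 1000 bp upstream, was present for 48 of 81 members (59.3%, interval 48.4 to 69.3), beside 3438 of 19973 coding genes (17.2%). The share was 29 of 50 (58%) in the large and 19 of 31 (61.3%) in the small subunit. Optimal summits were found at 11 of the 48 divergent members (22.9%, interval 13.3 to 36.5) and at 4 of the other 33 (12.1%, interval 4.82 to 27.3). Over all coding genes the shares were 3.17% with a divergent neighbour and 1.29% without. Members were thus above all coding genes both with and without such a neighbour.

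In the 11 divergent promoters the assignment of the peak to the ribosomal protein gene alone is not fixed by position. The summit lay nearer to the member in 4 cases and nearer to the neighbour in 7, and its median place was 59.4% of the way from the member to the neighbour. It was near the middle at rps-23, 279 bp from rps-23 and 255 bp from dpm-3, which encodes a subunit of dolichol-phosphate mannose synthase. At rpl-15 it was 369 bp from rpl-15 and 445 bp from K11H12.8. At rps-1 it was 253 bp from rps-1 and 515 bp from ifet-1, the homologue of the eIF4E transporter.

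The summit lay closer to the neighbour at rps-26, 438 bp from that gene and 19 bp from tmem-107, a gene of the ciliary transition zone. It also lay closer to the neighbour at rpl-20 (288 bp, and 174 bp from Y17G9B.5) and at rps-19 (280 bp, and 165 bp from hsr-9, the homologue of the DNA damage protein 53BP1). The same held at rps-20 (236 bp, and 161 bp from ekl-4), rpl-43 (739 bp, and 182 bp from Y48B6A.1) and rps-12 (198 bp, and 95 bp from ska-3, a spindle and kinetochore gene). It lay closer to the member at rpl-7A (51 bp, and 203 bp from set-21, a SET domain gene) and at rpl-12 (2 bp, and 391 bp from lin-54, the DNA-binding subunit of the DREAM complex). No divergent coding gene was within 1000 bp for rpl-3, rpl-35, rps-11 and rpl-27.

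**Figure D4:**
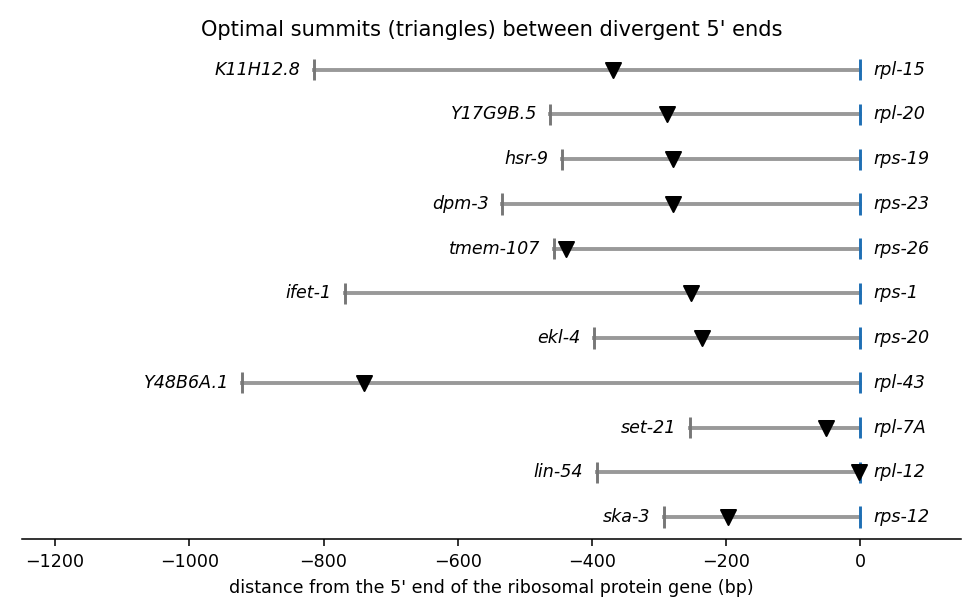
Each line spans the region between the 5' ends of a ribosomal protein gene (right, at 0) and its divergent neighbour (left), in bp, and the triangle marks the optimal summit. The summit lies nearer to the neighbour in 7 of the 11 promoters, from 19 bp at tmem-107 to 255 bp at dpm-3.

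Among genes of every type other than piRNA genes, the member had the 5' end nearest to the summit at 7 of the 15 peaks. Among protein-coding genes it was nearest at 8, and the difference is rps-1, where the noncoding RNA gene F56F3.11 began 8 bp from the summit. Of the summits 13 lay in intergenic sequence. The exceptions were rps-1, with its summit in the noncoding RNA gene F56F3.10, and rpl-27, with its summit in C53H9.2, the coding gene upstream. Also within 1000 bp of a summit were the 5' ends of cel-mir-354 at rps-20 and of the noncoding RNA gene Y24D9A.11 at rpl-7A.

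Some ribosomal protein genes share a divergent promoter with each other. There were 3 such pairs, rpl-24.1 with rps-10 (610 bp between the 5' ends), rpl-36 with rps-14 (663 bp) and rpl-39 with rps-30 (499 bp). None of these 6 genes had an optimal summit, which allows a share of up to 50% and so does not set them apart from the other members. No list had a call in the promoter window of rpl-24.1 or of rps-10. The pooled call in the window of rps-14 (rank 19584) had its summit inside rpl-36, and that of rpl-39 (rank 1234) had its summit inside rps-30.

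Ribosomal protein genes that host snoRNAs were examined because peaks of this list also fall on snoRNA genes. Of the members 13 (16%) held 19 snoRNA genes, all in introns and all on the strand of the host. The share of hosts was 8 of 50 in the large and 5 of 31 in the small subunit. An optimal summit lay in the promoter window of 4 of 13 hosts (30.8%, interval 12.7 to 57.6), namely rpl-15, rps-23, rpl-7A and rps-12, and of 11 of 68 other members (16.2%, interval 9.28 to 26.7). The intervals overlap.

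The intronic snoRNAs themselves carried no optimal peak. None of the 19 had an optimal summit within 200 bp, which allows a share of up to 15.8%, while 52 of all 346 snoRNA genes did (15%), so these shares cannot be told apart at this number. Weaker pooled calls lay within 200 bp of 6 of the 19 (31.6%) and of 42.2% of all snoRNA genes. The count was 3 of 19 in replicate 1 (15.8%, against 41.9% of all snoRNA genes) and 6 of 19 in replicate 2 (against 43.1%). The strongest of them was at Y43B11AR.7 in rps-4 (rank 1637), followed by B0041.9 in rpl-4 (rank 2286), the latter being the call that is also assigned to the rpl-4 promoter. No optimal summit lay between the annotated ends of any of the 81 members, which allows a share of up to 3.70%. The same share was not computed for all coding genes. The distance from the promoter summit to the nearest intronic snoRNA was 584 bp at rpl-15, 677 bp at rps-23, 333 bp at rpl-7A and 278 bp at rps-12. Of the 15 peaks that of rps-26 was within 200 bp of a small RNA gene, 80 bp from the snoRNA gene F39B2.14, which overlaps tmem-107 and not rps-26.

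The summits lay on narrow islands of G and C. The 101 bp centred on the summit held 48.8% ± 6.79 G and C (SD over 15 peaks), and the same length centred 300 bp to both sides held 37.6% ± 6.39. The summit was higher than its flanks at 14 of 15 peaks. For all 665 optimal peaks the values were 47.6% ± 8.76 and 36.2% ± 7.04, with 572 above their flanks. A summit richer in G and C than its flanks at 300 bp was thus not particular to the members. At the same distance of 280 bp upstream, promoters of all coding genes held 34.4% and those of all 81 members 39.7%. Within 100 to 150 bp of the summit the member mean was 29.3% to 29.5% on the side away from the gene. On the side of the gene it was 33.5% at 100 bp and 29.4% at 150 bp. The lowest window was that of rps-11 (30.7%), the peak that also differed most in rank between replicates, and rpl-3 and rpl-15 were highest (57.4% each).

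**Figure D5:**
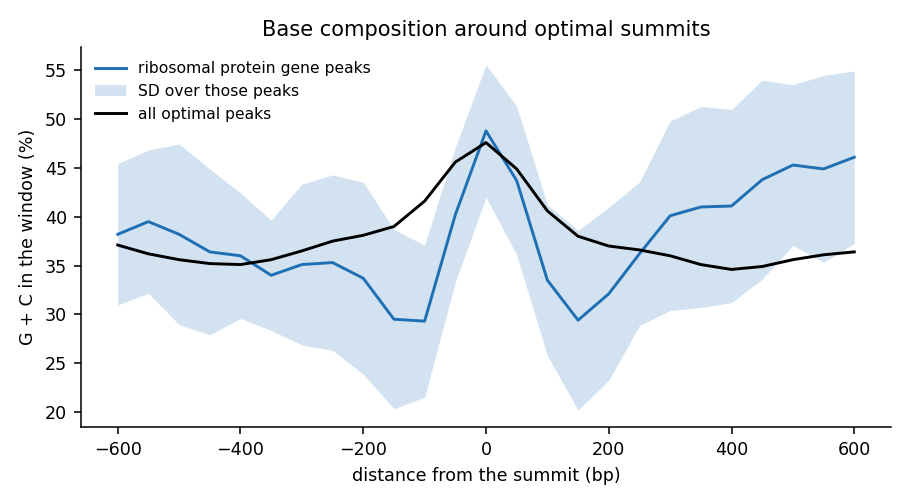
Mean G and C content in percent of 101 bp windows at distances from the optimal summit in bp, for the 15 member peaks (blue, SD over peaks shaded, oriented with the gene to the right) and for all 665 optimal peaks (black, not oriented). Member peaks rise to 48.8% at the summit and lie near 30% at 100 to 150 bp upstream.

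The words marked in the sequences above were described over the whole list. TACCGTA was present in the summit window of 6 of 15 members, rpl-3, rpl-20, rps-23, rps-1, rps-20 and rpl-43, with its middle from 27 bp before to 23 bp after the summit. It was present in 18 of all 665 optimal windows (2.71%), so these 6 make up 33.3% of its occurrences there. AAGTGTA was present at 5 of 15, rpl-3, rpl-15, rpl-35, rpl-20 and rps-1, and in 13 of 665 optimal windows (1.95%). In windows of the same length at the same distance upstream of all 19973 coding genes, the words were found in 314 and 348 genes. Since the words were picked because members share them, these counts are a description.

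Both words also occurred in promoter windows of members without a peak. TACCGTA occurred in the promoter windows of 19 of 81 members (23.5%) and 14.7% of all coding genes. It was in the windows of 6 of the 15 members with an optimal summit and 13 of the 66 without. Among the latter were rpl-5 and rpl-18, whose promoter windows held no call of any list. AAGTGTA occurred in 11 of 81 members (13.6%) and 16.9% of all coding genes, 6 of 15 with an optimal summit and 5 of 66 without. Promoter windows of the 15 include the summit windows from which both words were picked. Their higher shares were therefore fixed in part by that choice and are no sign of a link with peaks. Among other coding genes that hold TACCGTA in the window 1.61% had an optimal summit, and among those with AAGTGTA 1.04%.

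Of 14 motifs searched on both strands in the same 101 bp windows, 9 were in no member window. These were the TATA motif TATAAA (6.62% of all optimal windows), the GC box GGGCGG (6.17%), the E box CACGTG (2.71%) and a run of 8 T bases (4.21%), with TCTGCGTCT, a core motif of the zinc finger factor EOR-1 (2.71%), the overlapping CTGCGTC (4.06%), the E2F motif TTCGCGC (2.11%) and GTCATC, a core of SKN-1 sites (4.36%). The B box of RNA polymerase III promoters, GTTCGANNC, was also in none (9.17%). CCAAT was in 2 member windows, rps-19 and rps-20 (17.3% of all optimal windows). GAGAGA was found at rps-1 (12.6% of all optimal windows) and TTTCAG at rps-23 (9.77%). The C box TGATGA was found at rpl-35 (5.56%), and the GATA motif AGATAA at rps-11 (2.71%). For the motifs in no member window, a count of 0 of 15 allows a share of up to 20%. This is above the share of all optimal windows given for each of them, so the absences say little. A motif that was not found is only a statement about the letters of these windows.

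Other genes of protein synthesis are given for comparison, in lists picked with results of these data known. The ribosome biogenesis list, covering assembly factors, RNA polymerase I subunits and snoRNP core proteins, held 50 names, of which 44 matched a gene. Of these 44 genes 2 had an optimal summit (4.55%, interval 1.26 to 15.1), beside 1.61% of all coding genes. These were pro-1, a WD repeat gene needed for ribosomal RNA processing (signal 332.6, rank 19), and rpac-19, which encodes a subunit shared by RNA polymerases I and III (179.9, rank 244). Mitochondrial ribosomal protein genes, whose products act in a separate ribosome, had 3 of 70 (4.29%, interval 1.47 to 11.9), mrps-28, mrpl-23 and mrpl-41. Translation factors had 4 of 38 (10.5%, interval 4.17 to 24), namely eif-3.B, eif-3.C, eef-1A.2 and iff-2, and this interval overlaps that of the members. Any pooled call was present at 24 of the 38 translation factors (63.2%), close to the 64.2% of members, at 23 of 44 biogenesis genes (52.3%) and at 32 of 70 mitochondrial ribosomal protein genes (45.7%). Ribosomal proteins under other names had none of 3. The strongest pooled call ranked 9079 at ubl-1 and 12228 at ubq-2, which encode fusions of a ubiquitin-like protein or ubiquitin to a ribosomal protein. The window of rack-1, a small subunit scaffold, held no pooled call.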

How the data were processed

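Peaks came from anti-GFP chromatin immunoprecipitation of L4 larvae, 2 biological replicates. The authors called intervals per replicate and on both pooled, each against a control, and derived the optimal list with IDR, per the README files that accompany each list. The deposited signal of a call, whose scale is not given in the sources used here, was used for ranks. The deposited −log10 q-value broke ties. The caller and IDR threshold are not given in the sources used here. Depth is unknown, and the control was not analysed here. The assembly is ce11, per the labels. Gene models came from Ensembl release 115. Offsets run from the summit to the annotated 5' end. Assignment of summits to windows was tested on simulated data. Named genes were all members with an optimal summit, the 10 strongest others, neighbours within 1000 bp, numbered copies and ubl-1, ubq-2 and rack-1. The other members named with no call in the window, and those holding a word, were chosen after their values were seen. Members, gene lists and words were chosen with earlier results of these data known. Calculations used Python 3.11.15, NumPy 2.4.6, pandas 2.3.3, SciPy 1.17.1 and matplotlib 3.10.9. The alternatives tried were other window limits, other 5' ends, peak overlap in place of the summit, the stronger part of the list, single replicates and removal of peaks near small RNA genes.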

Additional observations from a re-analysis of the deposited data

How the results depend on the processing

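Of the 90 values recomputed under another setting, 83 stayed within 1.5 times the count, or, for the 2 medians, within the gap between the replicates. That gap comes from single-replicate values that are themselves among the 90. The median offset stayed upstream of the 5' end wherever it was recomputed, and the other values have no direction. The number of members with an optimal summit was 12 with 500 bp upstream, 14 without peaks near small RNA genes, 11 with the 332 strongest calls of the list, and 15 under the others. From single replicates it was 13 to 14, with 8 large subunit members in each and 5 to 6 small subunit members, 13 to 14 distinct peaks, and a median offset of -323 to -266. The median pooled rank moved from 3579.5 to 1692 with 0 bp downstream and to 5257 with 500 bp downstream or with any overlap of the interval, since these settings change which weak calls are counted. In single replicates it was 4118.5 to 5313. Members nearest to their own summit numbered 4 of 11 with the stronger part of the list and 6 to 8 from single replicates. Peaks near a small RNA gene numbered 3 with a distance of 500 bp, 0 once such peaks were removed, and 1 from each replicate alone. Members among the strongest calls of both replicates numbered 8 with 332 calls and 14 with 1330 calls from each. Ranked within single replicates, 5 signals of 4 members, rpl-43, rpl-12, rps-11 and rps-12, fell outside the 665 strongest calls. No paired analysis was possible because there was 1 group. Neither the unknown depth nor the control can be weighed with these lists.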
